A study of Mus musculus with 12 samples.

Results

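The Rag GTPases (Rraga, Rragb, Rragc, Rragd) and folliculin with its partners (Flcn, Fnip1, Fnip2) belong to the lysosomal arm of nutrient signalling to the kinase complex mTORC1. The transcription factors of the TFEB family (Tfeb, Tfe3, Mitf) lie downstream in the same pathway. These 10 genes were taken by name from the 53351 genes of the deposited table. All 10 passed the filter on low values that left 20240 genes for testing. The cells were neural progenitor cells of the wild-type mouse cortex at E13.5, dissociated and kept overnight in culture with growth factors. One set received 250 nM Torin1, an inhibitor of the mTOR kinase, for 2 h, and the other received DMSO, its solvent, for the same time. All cultures then had 5 min of cycloheximide (100 ug/ml), which stalls ribosomes where they are. Total mRNA came from 10% of a lysate, and polysome mRNA from the sucrose gradient fractions whose mRNAs carried more than 3 ribosomes. There were 12 libraries in 4 groups, with 3 biological replicates each, namely Torin1 polysome, DMSO polysome, Torin1 total and DMSO total mRNA. How many embryos stood behind each culture was not used here.

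A Rag dimer pairs RagA or RagB with RagC or RagD. The dimer sits on the lysosome, bound to the Ragulator complex, and brings mTORC1 there when amino acids are plentiful. Folliculin, bound to FNIP1 or FNIP2, makes RagC and RagD hydrolyse their GTP, and this step is needed for mTORC1 to act on TFEB and TFE3. Phosphorylated TFEB and TFE3 are held in the cytoplasm by 14-3-3 proteins. When mTORC1 is off they enter the nucleus and switch on genes of lysosomes and autophagy through E-box sites. MITF, a relative best known from melanocytes and the retinal pigment epithelium, binds the same sites. Rragd and Flcn are themselves known targets of the family, so the pathway contains a feedback loop.

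The deposited values are relative abundances, with column totals of 14341674 to 19201406, and give no read depth. They are printed in parts-per-million (ppm) after rescaling, and a gene's level can be compared between libraries but not with the level of another gene, since transcript length was not taken into account. Folds are differences in log2(value + 1) on the rescaled table, where 1 unit is about 0.0578 ppm, and carry their standard error (SE). A gene was called where limma's Benjamini-Hochberg adjusted p over all 20240 genes was under 0.05. Markers of neural progenitors summed to 4858 to 7216 ppm in Torin1 polysome, 5237 to 6301 ppm in DMSO polysome, 4349 to 4446 ppm in Torin1 total and 3852 to 3944 ppm in DMSO total mRNA, with none of the 10 absent. Of these 10, 4 rose with Torin1 in polysome mRNA (Sox2, Hes1, Hes5 and Emx2) and 3 in total mRNA (Sox2, Vim and Hes1), none fell, and 9 had a fold above 0 in each fraction. Among all genes tested 4.75% rose in polysome and 3.08% in total mRNA. Among genes with a mean of at least 8 ppm these shares were 6.91% and 3.97%. In polysome mRNA the sum is carried by Fabp7, at 3783 ± 1496 ppm with Torin1 and 4256 ± 616 ppm with DMSO (SD, n = 3 each). Fabp7 is the marker with a fold below 0. In total mRNA it averaged 1863 ± 33 ppm with Torin1 and 2048 ± 32 ppm with DMSO. There Vim averaged 1706 ± 51 ppm with Torin1 and 1136 ± 14 ppm with DMSO (SD, n = 3 each). What part the progenitor markers have in the results on the 10 members was not tested. The 7 neuron markers summed to 3025 to 3344 ppm in Torin1 polysome, 3033 to 3174 ppm in DMSO polysome, 2963 to 3062 ppm in Torin1 total and 2829 to 2880 ppm in DMSO total mRNA. In total mRNA every Torin1 sum was thus above every DMSO sum. Of these 7, 1 rose with Torin1 in each fraction and none fell. Torin1 total replicate 2 stood apart from the other total libraries, with 2074 ppm of the small nuclear RNA gene Rn7sk against 38.8 to 184 ppm in the other 5.

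The genes lie at chr4:86575673-86577285 (Rraga), chrX:153137644-153190192 (Rragb), chr4:123917433-123936997 (Rragc), chr4:32982998-33022180 (Rragd), chr11:59791408-59810039 (Flcn), chr11:54438107-54518241 (Fnip1), chr3:79455971-79568151 (Fnip2), chr17:47737037-47792416 (Tfeb), chrX:7762530-7775202 (Tfe3) and chr6:97807002-98021360 (Mitf) in RefSeq's annotation of GRCm38, the assembly of mm10. All 10 are annotated as protein coding. The E-box CACGTG, the core of the sites bound by TFEB, TFE3 and MITF, was searched on both strands of the RefSeq promoter windows, each from 250 bases before to 50 bases after a start. It reads the same on both strands. The 10 genes have 15 such windows, since Tfeb and Mitf have 3 starts each and Tfe3 has 2. Windows of 3 genes held it, namely Rragb with 3 copies and Rragc and Fnip1 with 1 copy each. In the RefSeq set as a whole, 7.15% of 32851 windows held it. The longer form TCACGTG, which contains it, was in the same 3 windows and in 3.77% of all windows, and all 5 copies were of that form when read on one strand or the other. The full palindrome TCACGTGA was in none of the 15 windows and in 0.974% of all windows, and the variant CATGTG was in none of the 15 and in 14.2% of all. A match is a string of letters and not a measured binding site. The Rragb window (chrX:153139708-153140007, plus strand) is shown whole because it holds 3 copies, and 60 bases around the copy are shown for Rragc (chr4:123917294-123917353, plus strand) and Fnip1 (chr11:54438077-54438136, plus strand), with the E-box in capitals. The Rraga window (chr4:86575423-86575722, plus strand), which holds none, is shown because Rraga was the member called in both fractions.
Rragb: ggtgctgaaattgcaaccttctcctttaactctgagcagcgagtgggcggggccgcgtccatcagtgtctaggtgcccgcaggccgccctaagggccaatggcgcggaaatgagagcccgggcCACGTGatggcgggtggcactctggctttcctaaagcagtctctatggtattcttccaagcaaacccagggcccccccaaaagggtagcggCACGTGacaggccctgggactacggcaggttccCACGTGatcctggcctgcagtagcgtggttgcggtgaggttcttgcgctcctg
Rragc: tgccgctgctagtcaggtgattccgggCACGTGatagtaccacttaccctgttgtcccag
Fnip1: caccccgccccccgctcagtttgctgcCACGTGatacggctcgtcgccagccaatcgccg
Rraga: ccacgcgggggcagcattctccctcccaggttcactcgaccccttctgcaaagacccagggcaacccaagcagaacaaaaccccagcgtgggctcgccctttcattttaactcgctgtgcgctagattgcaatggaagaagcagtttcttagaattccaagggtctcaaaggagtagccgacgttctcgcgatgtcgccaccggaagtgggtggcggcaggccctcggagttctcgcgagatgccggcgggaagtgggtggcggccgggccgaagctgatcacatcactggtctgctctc
Counted from the start that defines each promoter window, the copies begin 127, 36 and 3 bases before it in Rragb. They begin 112 bases before it in Rragc and 75 bases before it in Fnip1. For Rragb and Fnip1 this start lies inside the gene span given above and is not its first base. The 3 Rragb copies also lie inside that span.

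The comparison of Torin1 with DMSO asked how the amounts of these mRNAs, on polysomes and in total, stood after 2 h of the inhibitor. Rraga fell in both fractions and Tfeb fell in polysome mRNA, while the other 8 members passed the test in neither. In polysome mRNA 2 of the 10 members were called, both lower, where 10.1% of all genes tested were called and 5.32% were lower. With scaling to the column total alone neither of these was called in polysome mRNA, and Fnip1 and Rragd were called higher in their place. In total mRNA 1 member was called, lower, where 7.62% of all genes were called and 4.55% were lower. All members except Tfeb and Mitf had a mean of at least 8 ppm, and among genes at that level 16.8% were called in polysome and 12.2% in total mRNA. The median log2 fold of the 10 was -0.10 in polysome mRNA, against 0.01 for all genes, and -0.07 in total mRNA, against -0.01 for all genes. For genes with a mean of at least 8 ppm the median was -0.04 in polysome and -0.06 in total mRNA. The Torin1 and DMSO libraries did not overlap for 5 members in polysome mRNA, where 24% of all genes did not overlap, and for 6 members in total mRNA, where 33.4% did not. In a bulk culture, fewer cells that hold a transcript and less of it per cell cannot be told apart.

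**Figure D1:**
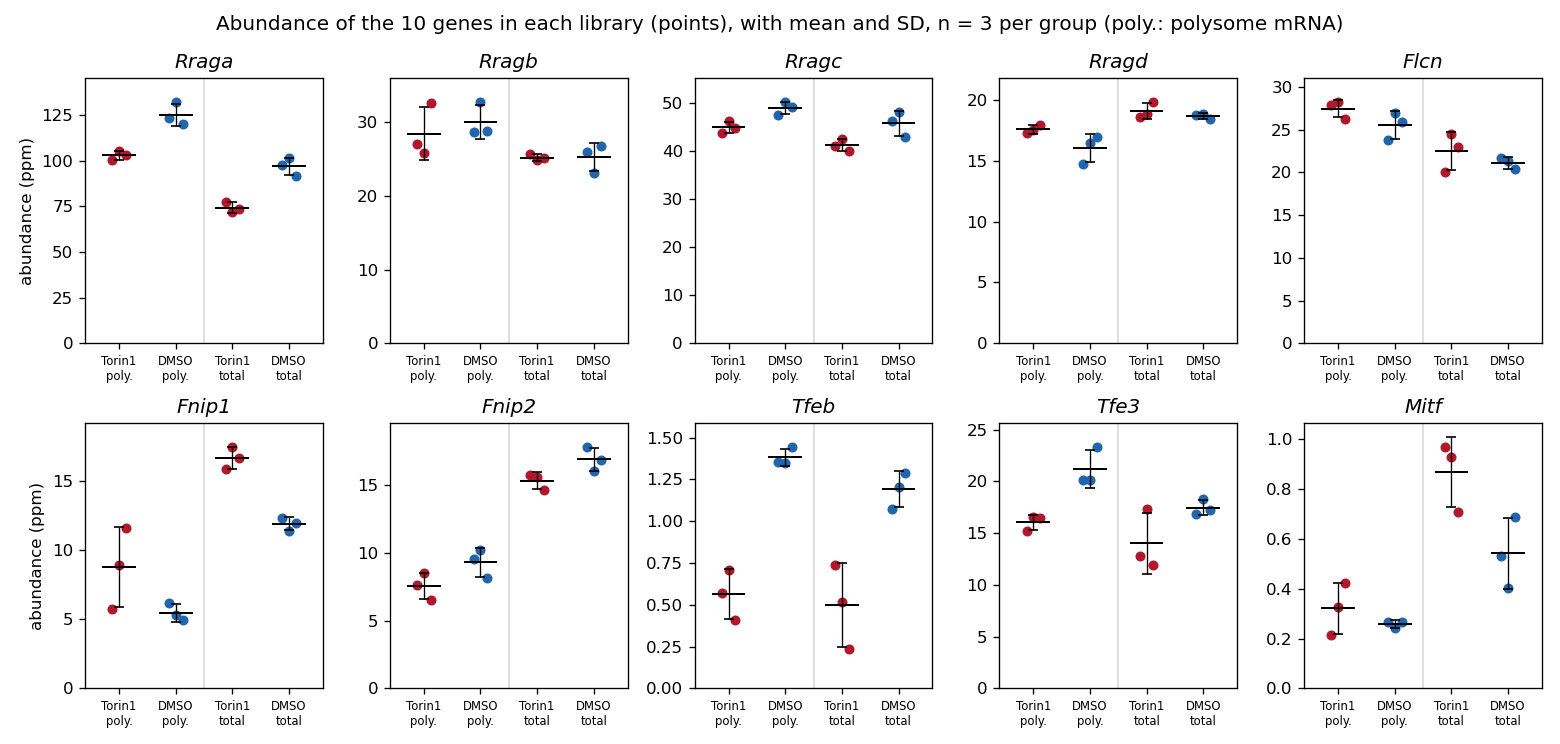
Abundance in ppm (vertical axes, each from 0) of the 10 genes in the 12 libraries, with Torin1 in red and DMSO in blue; horizontal lines are means and bars SDs over n = 3. The 3 Torin1 libraries of Rraga and of Tfeb lie below the 3 DMSO libraries in both fractions, and Fnip1, Fnip2 and Mitf are lower in polysome than in total mRNA.

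Among the Rag genes, Rraga, which encodes RagA, was the only one that passed the test, in both fractions. Polysome mRNA held 101, 105 and 103 ppm of it in the 3 Torin1 libraries, against 123, 132 and 120 ppm in the DMSO libraries. Total mRNA held 77.6, 71.8 and 73.8 ppm in the Torin1 libraries, against 97.7, 101 and 91.9 ppm in the DMSO libraries. Every Torin1 library lay below every DMSO library in both fractions. The log2 fold was -0.28 ± 0.06 (SE, limma adjusted p = 0.0128) in polysome mRNA and -0.38 ± 0.06 (adjusted p = 0.00336) in total mRNA, which is a decrease of 17.6% and of 23.3% on that scale. Both calls held without any 1 library. With replicate number 1 or 2 left out of all 4 groups the total mRNA fold was -0.41 and -0.32, with adjusted p = 0.0776 and 0.104. The polysome call was lost with any replicate number left out (adjusted p from 0.0642 to 0.123) and in a fit of the polysome libraries alone (adjusted p = 0.0729). When values were scaled by their column totals only, under which the median gene in polysome mRNA had a log2 fold of 0.23, the polysome fold of Rraga was -0.04 (adjusted p = 0.828), and that in total mRNA stayed called. In order of level, DMSO polysome came first, then Torin1 polysome and DMSO total, whose libraries overlapped, and Torin1 total last.

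Rragb, the gene of the closely related RagB, passed the test in neither fraction. Its abundance was 27.0, 25.7 and 32.5 ppm in Torin1 polysome mRNA, against 28.7, 32.6 and 28.7 ppm in DMSO polysome mRNA. In total mRNA it was 25.7, 24.8 and 25.1 ppm with Torin1, against 25.9, 23.1 and 26.7 ppm with DMSO. The groups overlapped in both fractions. The log2 fold was -0.08 with a 95% interval of -0.30 to 0.13 in polysome mRNA and 0.00 with an interval of -0.21 to 0.21 in total mRNA. A decrease in total mRNA as large as that estimated for Rraga thus lay outside the interval for Rragb. In polysome mRNA the decrease estimated for Rraga lay inside the interval for Rragb. The within-library ratio of Rraga to Rragb, which does not depend on scaling, was 3.66 ± 0.46 in Torin1 polysome and 4.17 ± 0.13 in DMSO polysome mRNA, and 2.95 ± 0.06 in Torin1 total and 3.87 ± 0.49 in DMSO total mRNA (SD, n = 3 each). Such a ratio carries the unequal lengths of the transcripts, so its change and not its size can be read. Every Torin1 library was below every DMSO library in total mRNA and not in polysome mRNA, with a two-sided exact permutation p of 0.1 in total mRNA, the smallest that 3 against 3 allow, and of 0.2 in polysome mRNA. Adjusted over the 8 ratio tests made here these were 0.114 and 0.2.

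Rragc, which encodes the RagC partner on which folliculin acts, had 43.8, 46.1 and 44.7 ppm in Torin1 polysome mRNA, against 47.5, 50.0 and 49.1 ppm in DMSO polysome mRNA. In total mRNA it had 41.1, 42.5 and 40.0 ppm with Torin1, against 46.2, 48.1 and 42.9 ppm with DMSO. The Torin1 libraries lay below the DMSO libraries in both fractions by a small margin. Its log2 fold was -0.12 ± 0.06 (adjusted p = 0.25) in polysome mRNA and -0.15 ± 0.06 (adjusted p = 0.176) in total mRNA, and neither passed the test. With scaling to the column total alone the polysome fold was 0.12.

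Rragd, which encodes the alternative partner RagD and is a known TFEB target, had 17.2, 17.5 and 17.9 ppm in Torin1 polysome mRNA, against 14.7, 16.5 and 16.9 ppm in DMSO polysome mRNA, so that every Torin1 library was higher. Total mRNA held 18.5, 18.9 and 19.8 ppm with Torin1, against 18.8, 18.8 and 18.4 ppm with DMSO, and these overlapped. Rragd had a log2 fold of 0.13 ± 0.07 (adjusted p = 0.313) in polysome mRNA and 0.03 ± 0.07 (adjusted p = 0.871) in total mRNA. With scaling to the column total alone the polysome fold was 0.37 with adjusted p = 0.0294, against 0.23 for the median gene. The ratio of Rragc to Rragd was 2.56 ± 0.07 in Torin1 polysome and 3.05 ± 0.17 in DMSO polysome mRNA, and 2.16 ± 0.12 in Torin1 total and 2.45 ± 0.11 in DMSO total mRNA (SD, n = 3 each). Every Torin1 library had the lower ratio in both fractions, each with an exact permutation p of 0.1, or 0.114 adjusted over the 8 ratio tests.

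Flcn, the gene of folliculin, had 27.9, 28.2 and 26.3 ppm in Torin1 polysome mRNA, against 23.7, 26.9 and 25.9 ppm in DMSO polysome mRNA. Total mRNA held 20.1, 24.5 and 23.0 ppm with Torin1, against 21.6, 21.3 and 20.4 ppm with DMSO. The groups overlapped in both fractions. Folds were small, at 0.11 ± 0.08 (adjusted p = 0.503) in polysome mRNA and 0.09 ± 0.08 (adjusted p = 0.595) in total mRNA, with a 95% interval of -0.08 to 0.29 in polysome and -0.09 to 0.27 in total mRNA.

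The genes of the partners of folliculin, Fnip1 and Fnip2, had folds of opposite sign. Fnip1 had 5.78, 8.96 and 11.6 ppm in Torin1 polysome mRNA, against 6.18, 5.30 and 4.94 ppm in DMSO polysome mRNA. Total mRNA held 15.9, 17.4 and 16.7 ppm with Torin1, against 12.4, 11.4 and 11.98 ppm with DMSO. All 3 Torin1 total libraries were above the 3 DMSO total libraries with a clear gap, whereas in polysome mRNA Torin1 replicate 1 lay among the DMSO libraries and replicate 3 was the highest. On the log2 scale the difference was 0.62 ± 0.20 (adjusted p = 0.0684) in polysome mRNA and 0.48 ± 0.20 (adjusted p = 0.175) in total mRNA, and neither passed the test. The fit shares 1 spread for each gene over all 4 groups, and in a fit of the total libraries alone the total mRNA fold of Fnip1 had adjusted p = 0.00782. The polysome fold was called with scaling to the column total alone (0.86, adjusted p = 0.0092) and among the genes with a mean of at least 8 ppm, tested alone (adjusted p = 0.041). Without Torin1 polysome replicate 1 the polysome fold was 0.89 (adjusted p = 0.0019), and without replicate 3 it was 0.40 (adjusted p = 0.154).

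Fnip2 had 7.61, 8.55 and 6.57 ppm in Torin1 polysome mRNA, against 9.57, 10.3 and 8.13 ppm in DMSO polysome mRNA. Total mRNA held 15.8, 15.6 and 14.6 ppm with Torin1, against 17.8, 16.1 and 16.9 ppm with DMSO. The polysome groups overlapped, and in total mRNA the Torin1 libraries were the lower ones. For Fnip2 the log2 fold was -0.30 ± 0.12 (adjusted p = 0.135) in polysome mRNA and -0.14 ± 0.12 (adjusted p = 0.552) in total mRNA. The ratio of Fnip1 to Fnip2 within a library was 0.759, 1.05 and 1.76 in Torin1 polysome mRNA, against 0.646, 0.517 and 0.608 in DMSO polysome mRNA. It was 1.01, 1.12 and 1.14 in Torin1 total mRNA, against 0.694, 0.712 and 0.708 in DMSO total mRNA. All Torin1 libraries had a higher ratio than all DMSO libraries in both fractions. The geometric mean ratio was 1.90-fold higher with Torin1 in polysome mRNA and 1.54-fold higher in total mRNA, each with a two-sided exact permutation p of 0.1, the smallest possible, and 0.114 adjusted over the 8 tests. Without 1 library the log2 fold of the ratio lay between 0.60 and 1.21 in polysome mRNA and between 0.59 and 0.68 in total mRNA.

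**Figure D2:**
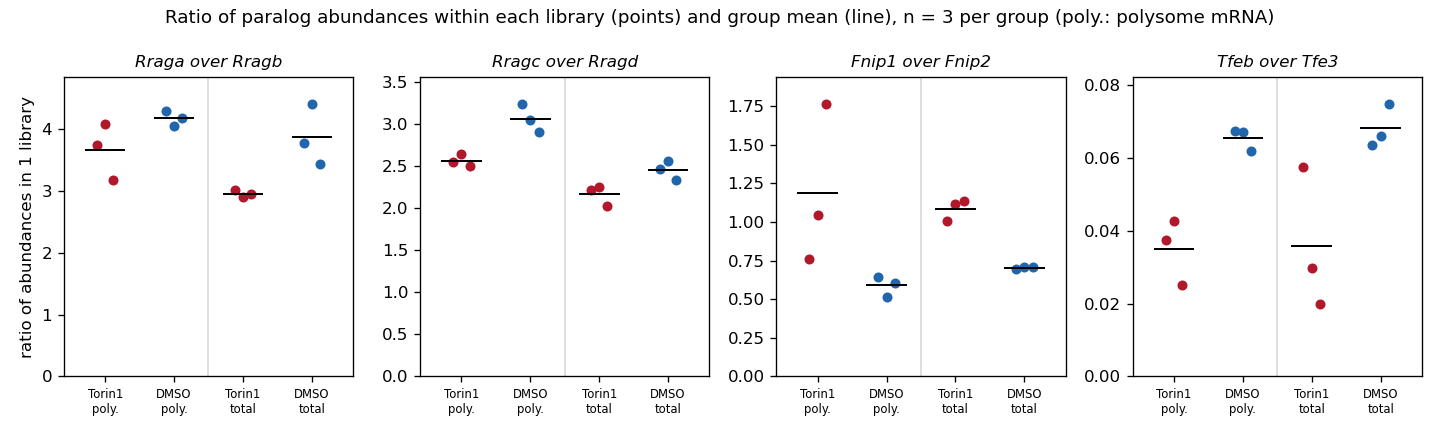
Ratio of the abundances of paired paralogs within each library (points), with group means (lines), n = 3 per group, Torin1 in red and DMSO in blue. The ratio of Fnip1 to Fnip2 in total mRNA lies between 1.01 and 1.14 in Torin1 libraries and between 0.694 and 0.712 in DMSO libraries.

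Tfeb, the first of the 3 transcription factor genes, was scarce. Polysome mRNA held 0.570, 0.708 and 0.412 ppm in the Torin1 libraries, against 1.36, 1.35 and 1.44 ppm in the DMSO libraries. Total mRNA held 0.737, 0.519 and 0.236 ppm in the Torin1 libraries, against 1.08, 1.21 and 1.29 ppm in the DMSO libraries. In both fractions every Torin1 library was below every DMSO library, and the Torin1 total libraries were the most spread. The log2 fold was -1.24 ± 0.36 (adjusted p = 0.0485) in polysome mRNA and -1.28 ± 0.36 (adjusted p = 0.0513) in total mRNA. Only the polysome value passed the test, and both were close to the threshold. The polysome call was lost without any 1 of the 6 polysome libraries (adjusted p from 0.06 to 0.132) and with the replicate numbers as blocks (adjusted p = 0.0603), while the fold stayed between -1.41 and -1.05 without 1 of those libraries. It was also lost with the upper quartile (adjusted p = 0.0516) and with the column total alone (-1.01, adjusted p = 0.0894), and the total mRNA fold was called without Torin1 total replicate 1 (-1.60, adjusted p = 0.034). With a pseudocount of 16 units, 0.926 ppm, the fold was -0.64 in polysome and -0.59 in total mRNA, both past the threshold.

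Tfe3, the relative with a broader expression, had 15.2, 16.5 and 16.4 ppm in Torin1 polysome mRNA, against 20.1, 20.1 and 23.3 ppm in DMSO polysome mRNA. Total mRNA held 12.8, 17.4 and 11.9 ppm with Torin1, against 16.9, 18.3 and 17.2 ppm with DMSO. The Torin1 libraries were lower throughout in polysome mRNA, and in total mRNA Torin1 replicate 2 reached into the DMSO range. For Tfe3 the log2 fold was -0.39 ± 0.13 (adjusted p = 0.072) in polysome mRNA and -0.33 ± 0.13 (adjusted p = 0.141) in total mRNA, and neither passed the test. Without Torin1 total replicate 2, the library with the high Rn7sk, the total mRNA fold was -0.50 (adjusted p = 0.0189). Among the 9352 genes with a mean of at least 8 ppm, tested alone, the polysome fold had adjusted p = 0.043. The ratio of Tfeb to Tfe3 was 0.0351 ± 0.0091 in Torin1 polysome and 0.0655 ± 0.0031 in DMSO polysome mRNA, and 0.0358 ± 0.0196 in Torin1 total and 0.0681 ± 0.0059 in DMSO total mRNA (SD, n = 3 each). It was lower in every Torin1 library, with an exact permutation p of 0.1 in each fraction and 0.114 adjusted over the 8 tests.

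Mitf had 0.216, 0.326 and 0.423 ppm in Torin1 polysome mRNA, against 0.269, 0.241 and 0.269 ppm in DMSO polysome mRNA. Total mRNA held 0.968, 0.931 and 0.710 ppm with Torin1, against 0.533, 0.405 and 0.690 ppm with DMSO. The polysome groups overlapped, and the total groups were separated by a narrow gap. For Mitf the log2 fold was 0.22 ± 0.33 (adjusted p = 0.748) in polysome mRNA and 0.64 ± 0.33 (adjusted p = 0.298) in total mRNA. The 8 markers of melanocytes and the retinal pigment epithelium summed to 0.484 to 0.693 ppm in Torin1 polysome and 0.362 to 0.977 ppm in DMSO polysome mRNA, and to 0.173 to 2.31 ppm in Torin1 total and 0.173 to 0.368 ppm in DMSO total mRNA. Of these markers Mlana and Rpe65 were at 0 in all 12 libraries. Tfec, the remaining gene of the family, known from macrophages and pigment cells, averaged 0.362 ± 0.143 ppm in Torin1 polysome and 0.306 ± 0.097 ppm in DMSO polysome mRNA, and 0.118 ± 0.014 ppm in Torin1 total and 0.0918 ± 0.033 ppm in DMSO total mRNA (SD, n = 3 each). It passed the test in neither fraction (adjusted p = 0.835 and 0.774).

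**Figure D3:**
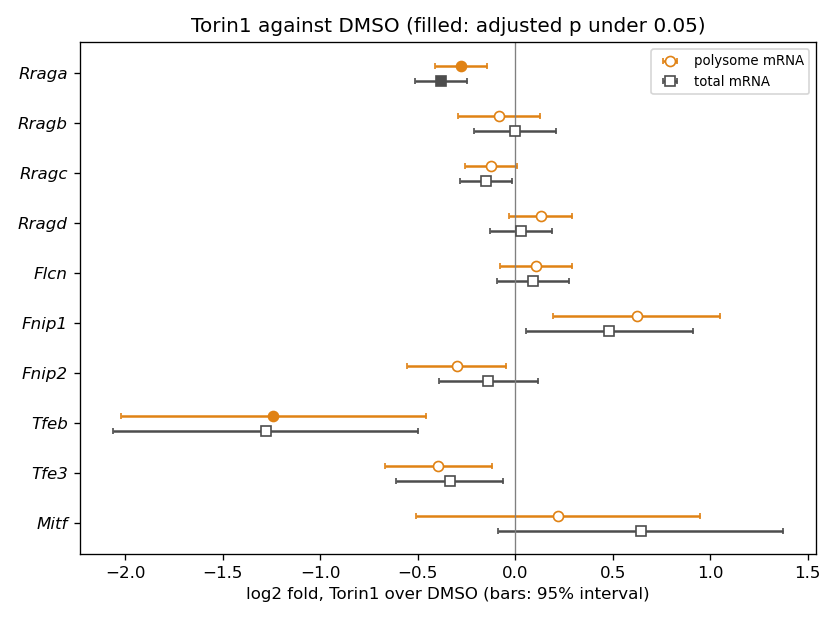
Log2 fold of Torin1 over DMSO (horizontal axis) with 95% intervals for the 10 genes, in polysome (circles) and total mRNA (squares), from limma over 12 libraries; filled symbols have adjusted p under 0.05. Rraga is filled in both fractions, at -0.28 and -0.38, and Tfeb in polysome mRNA, at -1.24.

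The genes whose pattern over the 12 libraries was most like that of Rraga, by Pearson's r of log2 values among 9351 other genes with a mean of at least 8 ppm, were Tmem50b (r = 0.98), Rbmxl1 (r = 0.98) and Ywhah (r = 0.98). The points share their libraries, their scaling and the division into 4 groups, and r is given as a description. Ywhah encodes a 14-3-3 protein. The log2 folds of these genes were -0.23 in polysome and -0.35 in total mRNA for Tmem50b, -0.24 and -0.30 for Rbmxl1, and -0.34 and -0.38 for Ywhah.

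Whether Torin1 changed a transcript by another factor on polysomes than in total mRNA was asked with the interaction of treatment and fraction. None of the 10 members passed, by limma, where 0.697% of all genes did, and none had an unadjusted p under 0.05. For Rraga the polysome fold exceeded the total fold by 0.10 on the log2 scale, with a 95% interval of -0.09 to 0.29. For Fnip1 the difference was 0.14 with an interval of -0.46 to 0.75, and for Tfeb it was 0.04 with an interval of -1.07 to 1.14. For the other 7 members it lay between -0.42 for Mitf and 0.10 for Rragd. The intervals of Tfeb and Mitf are wide enough to hold a change of either sign by more than 1.5-fold.

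Polysome mRNA was also compared with total mRNA within each treatment. Since values are relative in each library, this gives enrichment beside other genes and not the share of a transcript's copies on polysomes. Rraga and Flcn were richer in polysome mRNA, and Fnip1, Fnip2 and Mitf were poorer, with both treatments. In Torin1 cells 5 of the 10 members were called, 2 higher and 3 lower, where 39.7% of all genes were called, 20.3% higher and 19.4% lower. In DMSO cells 6 were called, 2 higher and 4 lower, where 41.2% of all genes were called, 20.3% higher and 20.9% lower. Polysome and total libraries did not overlap for 8 members in Torin1 cells, where 47.2% of all genes did not overlap, and for 9 members in DMSO cells, where 53.3% did not. Among genes with a mean of at least 8 ppm, as all members except Tfeb and Mitf had, 64.6% were called in Torin1 and 66.1% in DMSO cells. With such shares, a call in this comparison is common.

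**Figure D4:**
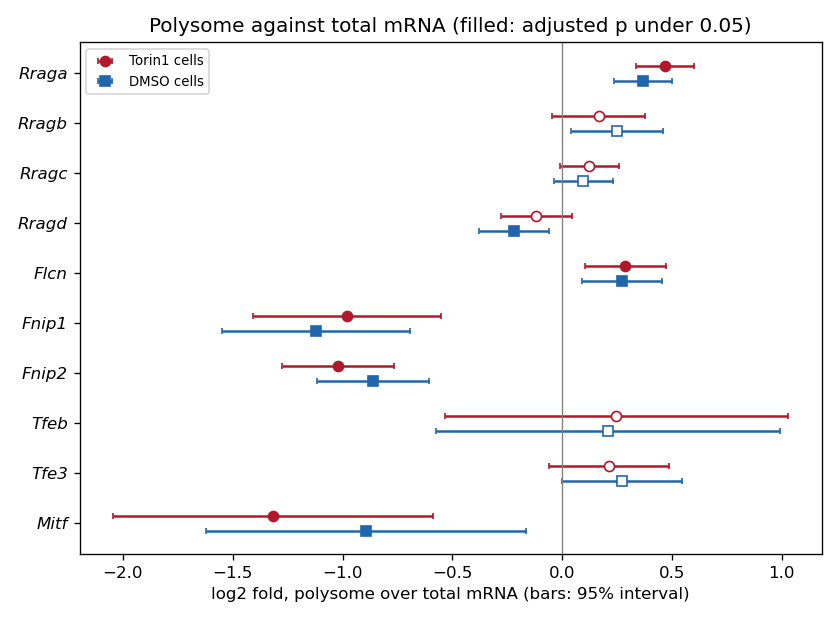
Log2 fold of polysome over total mRNA (horizontal axis) with 95% intervals for the 10 genes in Torin1 cells (circles) and DMSO cells (squares), from limma over 12 libraries; filled symbols have adjusted p under 0.05. Fnip1, Fnip2 and Mitf lie left of 0 in both treatments, and Rraga and Flcn right of it.

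Fnip1 and Fnip2 had the most polysome-poor transcripts that kept their calls under every alternative tried. Fnip1 averaged 8.77 ± 2.91 ppm in polysome against 16.7 ± 0.8 ppm in total mRNA of Torin1 cells, and 5.48 ± 0.64 ppm in polysome against 11.9 ± 0.5 ppm in total mRNA of DMSO cells (SD, n = 3 each). Its log2 fold was -0.98 ± 0.20 (adjusted p = 0.0016) in Torin1 cells and -1.12 ± 0.20 (adjusted p = 0.000577) in DMSO cells. Fnip2 averaged 7.58 ± 0.99 ppm in polysome against 15.4 ± 0.6 ppm in total mRNA of Torin1 cells, and 9.32 ± 1.09 ppm in polysome against 16.9 ± 0.9 ppm in total mRNA of DMSO cells (SD, n = 3 each). Every polysome library lay below every total library of the same treatment for both genes. The log2 fold of Fnip2 was -1.02 ± 0.12 (adjusted p = 2.48e-05) in Torin1 cells and -0.86 ± 0.12 (adjusted p = 8.13e-05) in DMSO cells. Flcn, which encodes the protein they bind, had the opposite sign, with log2 folds of 0.29 ± 0.08 (adjusted p = 0.0161) in Torin1 cells and 0.27 ± 0.08 (adjusted p = 0.0205) in DMSO cells. The Flcn values were less firm. With scaling to the column total alone they were 0.19 (adjusted p = 0.233) in Torin1 cells and -0.09 (adjusted p = 0.574) in DMSO cells. The DMSO call was lost without DMSO total replicate 3, DMSO polysome replicate 2 or 3, or replicate number 2 or 3. The Torin1 call was lost without Torin1 total replicate 1, without any 1 replicate number, and in a fit of the Torin1 libraries alone.

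Rraga was richer in polysome mRNA, with log2 folds of 0.47 ± 0.06 (adjusted p = 6.54e-05) in Torin1 cells and 0.37 ± 0.06 (adjusted p = 0.000381) in DMSO cells. With column totals as the only scaling the median gene in this comparison had a log2 fold of -0.11 in Torin1 and -0.37 in DMSO cells, against -0.0243 and -0.0448 in the scaling used here, and the folds of Rraga were 0.37, still called, and 0.00. Rragb had 0.17 ± 0.10 (adjusted p = 0.207) and 0.25 ± 0.10 (adjusted p = 0.0573), and Rragc had 0.12 ± 0.06 (adjusted p = 0.135) and 0.10 ± 0.06 (adjusted p = 0.242), in Torin1 and in DMSO cells. In DMSO cells Rragb was called higher on polysomes with the median of ratios (adjusted p = 0.0473), with the upper quartile (adjusted p = 0.0225), among genes of at least 8 ppm (adjusted p = 0.0361) and without replicate number 3 (adjusted p = 0.0424), and Rragc was called lower with the column total alone (-0.27, adjusted p = 0.0304). Rragd was lower on polysomes in DMSO cells, with -0.22 ± 0.07 (adjusted p = 0.0306), and had -0.12 ± 0.07 (adjusted p = 0.24) in Torin1 cells. Its DMSO call was lost with the upper quartile (adjusted p = 0.0889) and without any 1 of DMSO total replicates 1, 2 and 3 or DMSO polysome replicate 1. It was also lost without any 1 replicate number. For the transcription factors, Mitf had -1.32 ± 0.33 (adjusted p = 0.00723) in Torin1 cells and -0.89 ± 0.33 (adjusted p = 0.0495) in DMSO cells, of which the DMSO call was lost in 14 of 19 alternatives and the Torin1 call without replicate number 1 or 2. Tfeb had 0.25 ± 0.36 (adjusted p = 0.636) and 0.21 ± 0.36 (adjusted p = 0.685), and Tfe3 had 0.21 ± 0.13 (adjusted p = 0.21) and 0.27 ± 0.13 (adjusted p = 0.107), and neither gene passed. Tfe3 was called higher on polysomes in Torin1 cells without Torin1 total replicate 2 (0.38, adjusted p = 0.0105) and in DMSO cells in a fit of the DMSO libraries alone (adjusted p = 0.0295).

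The other genes of the pathway were followed in 4 lists. The first holds 26 genes that act on the Rag GTPases, namely Ragulator subunits, the GATOR and KICSTOR complexes and amino acid sensors. In polysome mRNA 3 of the 26 rose and 1 fell with Torin1, or 11.5% and 3.85%, where 4.75% of all genes rose and 5.32% fell. In total mRNA none rose and 1 fell, where 3.08% of all genes rose and 4.55% fell. Of the genes with a mean of at least 8 ppm, 6.91% rose and 9.93% fell in polysome mRNA, and 3.97% rose and 8.21% fell in total mRNA. The gene of this list that fell in both fractions was Sesn2, which encodes the leucine sensor sestrin 2. It averaged 5.28 ± 0.91 ppm in Torin1 polysome and 13.4 ± 1.3 ppm in DMSO polysome mRNA, and 5.97 ± 0.19 ppm in Torin1 total and 13.9 ± 0.9 ppm in DMSO total mRNA (SD, n = 3 each), a log2 fold of -1.35 ± 0.13 and -1.21 ± 0.13. Those that rose on polysomes were Nprl3, a subunit of GATOR1, which restrains RagA and RagB (0.53 ± 0.13, adjusted p = 0.0223), Itfg2 of KICSTOR, which tethers GATOR1 to the lysosome (0.52 ± 0.12, adjusted p = 0.0195), and Lars, the leucyl-tRNA synthetase (0.33 ± 0.09, adjusted p = 0.0293). The list's median log2 fold was 0.05 in polysome and 0.00 in total mRNA. The number that rose on polysomes was 6 with the column total alone, 0 without DMSO polysome replicate 1, and 1 without DMSO polysome replicate 3 or Torin1 polysome replicate 2.

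The second list holds 10 genes of mTORC1 and of its other input, the GTPase Rheb and the TSC complex. In polysome mRNA 3 of the 10 rose, or 30%, where 4.75% of all genes rose, and in total mRNA 2 rose, or 20%, where 3.08% of all genes rose. None fell in either. Of the genes with a mean of at least 8 ppm, 6.91% rose in polysome and 3.97% in total mRNA. Deptor, an inhibitory subunit, averaged 6.91 ± 0.54 ppm in Torin1 polysome and 3.17 ± 0.65 ppm in DMSO polysome mRNA (SD, n = 3 each), a log2 fold of 1.13 ± 0.15 (adjusted p = 0.000583), and in total mRNA the fold was 0.84 ± 0.15 (adjusted p = 0.00546). Rhebl1, which encodes a relative of Rheb, had 0.58 ± 0.11 (adjusted p = 0.00683) in polysome and 0.70 ± 0.11 (adjusted p = 0.00378) in total mRNA. Tsc1, a subunit of the complex that inhibits Rheb, had 0.33 ± 0.08 in polysome mRNA (adjusted p = 0.0214). The median log2 fold was 0.09 in polysome and 0.02 in total mRNA. The number called in polysome mRNA was 5 with the column total alone, all higher, 5 without Torin1 polysome replicate 1, of which 2 were lower, and 1 to 2 without 1 replicate number; in total mRNA it was 0 without replicate number 1 or 2 and 1 without replicate number 3.

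The third list holds 20 genes of proteins that control the TFEB family, such as 14-3-3 proteins, calcineurin and the GABARAP proteins that bring folliculin to damaged lysosomes. In polysome mRNA 2 of the 20 fell and in total mRNA 2 fell, or 10% in each, where 5.32% and 4.55% of all genes fell, and none rose. Of the genes with a mean of at least 8 ppm, 9.93% fell in polysome and 8.21% in total mRNA. With the column total alone the polysome calls of this list were 3 higher and 0 lower, with a list median of 0.24 beside 0.23 for all genes. Ywhah fell in both, with log2 folds of -0.34 ± 0.06 (adjusted p = 0.00369) in polysome and -0.38 ± 0.06 (adjusted p = 0.00301) in total mRNA. Gabarap fell in polysome mRNA (-0.31 ± 0.09, adjusted p = 0.0385) and Ywhag, another 14-3-3 gene, in total mRNA (-0.29 ± 0.08, adjusted p = 0.049). The total count of 2 was 1 with each other scaling, with a pseudocount of 0.1, with no filter, with no abundance trend and with the replicate block, 0 to 1 without 1 library or replicate number, and 4 in a fit of the total libraries alone. The median log2 fold was 0.00 in polysome and -0.07 in total mRNA.

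**Figure D5:**
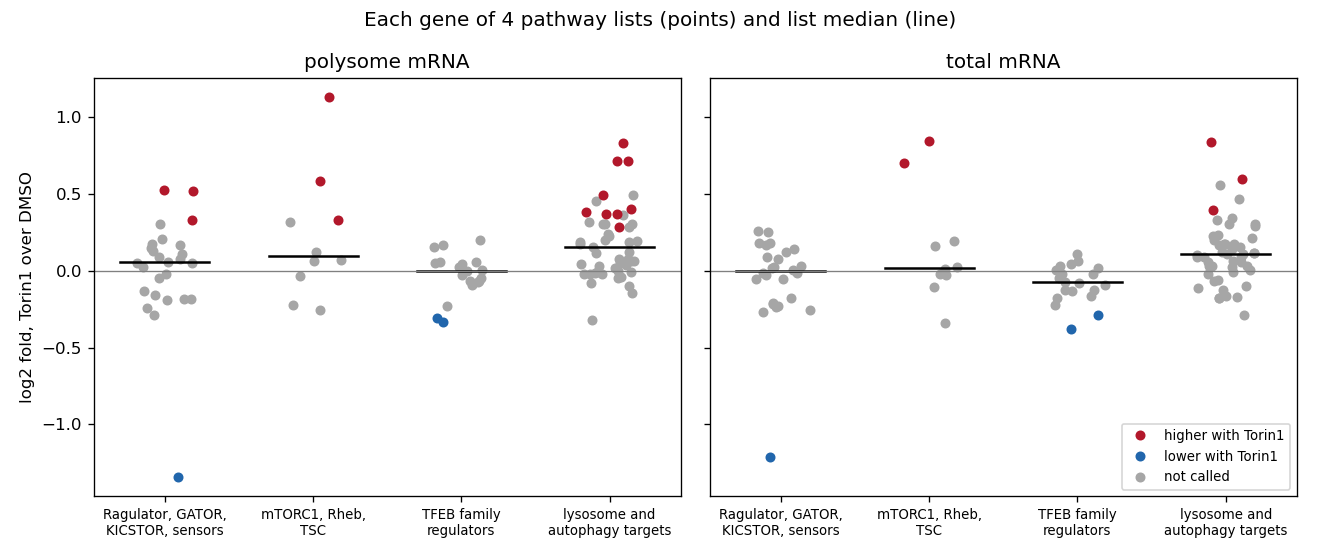
Log2 fold of Torin1 over DMSO (vertical axis) for each gene of the 4 lists (points), in polysome (left) and total mRNA (right), with list medians as lines; red and blue points have adjusted p under 0.05. In the lysosome and autophagy list 9 of 49 genes are red in polysome mRNA and 3 in total mRNA, and none is blue.

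The fourth list holds 49 genes of lysosomes and autophagy known as targets of the TFEB family. In polysome mRNA 9 of the 49 rose with Torin1 and none fell, or 18.4%, where 4.75% of all genes rose. In total mRNA 3 rose and none fell, or 6.12%, where 3.08% of all genes rose. Among genes with a mean of at least 8 ppm, 6.91% rose in polysome and 3.97% in total mRNA. The median log2 fold of the list was 0.16 in polysome mRNA, against 0.01 for all genes, and 0.11 in total mRNA, against -0.01 for all genes. Naglu, a lysosomal glucosaminidase, averaged 4.18 ± 0.70 ppm in Torin1 polysome and 2.30 ± 0.02 ppm in DMSO polysome mRNA, and 3.57 ± 0.34 ppm in Torin1 total and 1.98 ± 0.31 ppm in DMSO total mRNA (SD, n = 3 each). Its log2 fold was 0.83 ± 0.18 (adjusted p = 0.0122) in polysome and 0.84 ± 0.18 (adjusted p = 0.0154) in total mRNA.

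Hexa, a subunit of the hexosaminidase that degrades gangliosides, and Ctsa, which encodes cathepsin A, rose in total mRNA, with log2 folds of 0.60 ± 0.11 (adjusted p = 0.00771) and 0.39 ± 0.08 (adjusted p = 0.0131). In polysome mRNA Ctsa also rose, with 0.38 ± 0.08 (adjusted p = 0.0118). Ppargc1a, the coactivator of mitochondrial genes, and Gpnmb, a glycoprotein of lysosomes and melanosomes, rose in polysome mRNA, with 0.71 ± 0.16 (adjusted p = 0.0138) and 0.71 ± 0.17 (adjusted p = 0.0183). The remaining 5 that rose on polysomes were Ctsd, Gla, Psap, Sqstm1 and Vps11, with log2 folds from 0.29 for Psap to 0.49 for Gla. The polysome count was 4 without DMSO polysome replicate 1 or replicate 3, 14 without Torin1 polysome replicate 3, of which 1 was lower, 0 without replicate number 1 or 2 and in a fit of the polysome libraries alone, and 24 with column totals as the only scaling, where the list's median was 0.40 and that of all genes 0.23. The total count was 1 without DMSO total replicate 1 and 1 with column totals only.

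Markers of other cell types moved with part of these results. The 10 endothelial, mural and meningeal markers summed to 71.0 to 89.0 ppm in Torin1 polysome and 49.3 to 58.2 ppm in DMSO polysome mRNA, and to 64.9 to 79.0 ppm in Torin1 total and 41.7 to 48.5 ppm in DMSO total mRNA, with none of them at 0 throughout. Of these 10, 3 rose in polysome and 4 in total mRNA, where 4.75% and 3.08% of all genes rose, and none fell. Folds were below 0 for 3 of them in polysome and 2 in total mRNA. Progenitor markers rose as well, 4 of 10 in polysome and 3 of 10 in total mRNA. Among the 7 neuron markers 1 rose in each fraction and none fell. The part of these markers in the rise of the lysosomal genes was not tested. The 7 microglia and macrophage markers, cells rich in lysosomes, summed to 22.6 to 31.9 ppm in Torin1 polysome and 21.4 to 30.1 ppm in DMSO polysome mRNA, and to 13.3 to 17.0 ppm in Torin1 total and 10.97 to 17.3 ppm in DMSO total mRNA, so that the groups overlapped. None of the 7 passed the test in either fraction.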

How the data were processed

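Total and polysome mRNA of cultured mouse cortical cells was sequenced in 12 libraries, grouped by their titles into 4 groups of 3 biological replicates. Per the submitters' processing notes, the mm10 build, HTSeq 0.6.0 and STAR 2.7.9a were used, in roles that are not stated. The deposited signal has 53351 genes in 12 columns, and no source used here says how it was scaled. Values under 2000 steps all lay within 0.011 of a whole multiple of a step worth 0.01 ppm of the column, so 1 step is the same share of every column and is no read. Read numbers could not be recovered, and no counting interval is given.

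Scaling used column totals and a trimmed mean of log ratios without weights (trimmed shares 0.3 and 0.05). Genes needed a value of 1 or more in 3 libraries, which 20240 had, and were tested with limma 3.58.1 in R 4.3.3 on log2(value + 1), with 4 group means over all 12 libraries and moderated variances that follow abundance. The fit was tested on simulated data, with changes put into genes with a mean of at least 8 ppm. Of 100 changes of 1.5-fold, 59 were called in polysome and 65 in total mRNA. Of 100 changes of 2-fold, 89 and 88 were called. In each of these comparisons 12 unchanged genes were called. Total and polysome libraries of 1 lysate entered as independent: a random effect of the culture had a correlation of 0.0231 and changed no call among the members. Paralog ratios were compared by two-sided exact permutation tests. Within groups Pearson's r across the 9352 genes with a mean of at least 8 ppm was 0.963 to 0.984.

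The members, the lists and the rule for other genes named were chosen with earlier results of these data known. From each list the rule takes up to 3 genes with the largest fold past the threshold in each fraction. For a called member with a mean of at least 8 ppm it takes the 3 genes with the most similar pattern. Lars and 5 of the lysosomal genes were named after their values were seen. Alternatives were other scalings, pseudocounts of 0.1 and 16, other filters, fits of the compared groups, blocks, each library or replicate number left out, no abundance trend and a minimum of 1.5-fold. The alternatives for lists and ratios were chosen after seeing the data. Promoters come from RefSeq (GRCm38.p6), where all 10 members matched by symbol.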

Additional observations from a re-analysis of the deposited data

How the results depend on the processing

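The tests of the 10 members rest on 3 libraries a group, unknown depth and relative values, so the overall amount of polysome mRNA is not known, and Tfeb and Mitf lie near 1 ppm or below. The fold of Rraga in total mRNA kept its sign and its call in every alternative except those without replicate number 1 or 2 and the minimum of 1.5-fold. Fnip1 and Fnip2 kept their calls in polysome against total mRNA in every alternative run.

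Scaling to the column total alone called 3240 genes in polysome mRNA (89.85% higher, against 47.2% of 2039 in the main scaling) and 841 in total mRNA, against 1543. The share higher in total mRNA was 57.1% with the upper quartile, against 40.4%. In polysome against total mRNA the share higher with the column total alone was 21.6%, against 49.16%, in DMSO cells, and in the interaction it was 21.2%, against 2.84%. With the column total alone, folds that changed sign were -0.0225 for Rragb in total mRNA, 0.16 for Rragb and 0.12 for Rragc in polysome mRNA, 0.18 for Rragb, 0.10 for Fnip2 and 0.20 for Tfe3 in the interaction, and -0.11 for Rragb, -0.27 for Rragc, -0.0895 for Flcn, -0.14 for Tfeb and -0.0891 for Tfe3 in polysome against total mRNA of DMSO cells. In the interaction Rragc and Flcn had -0.0041 and -0.016 with the median of ratios, Rragc, Flcn and Tfeb had -0.0129, -0.0248 and -0.0005 with the upper quartile, and Tfeb had -0.0504 with a pseudocount of 16. The cause was not tested.

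For Torin1 against DMSO in polysome mRNA, 2 members were called with the column total alone, but Fnip1 and Rragd, both higher, in place of Rraga and Tfeb, and 3 among genes of at least 8 ppm (Fnip1 higher, Rraga and Tfe3 lower), which leaves Tfeb and Mitf untested. There 1 member (Rraga) was called in place of 2 with the upper quartile, with a pseudocount of 0.1, with no filter and with the replicate block, 1 (Tfeb) with a minimum of 1.5-fold, and 0 in a fit of the polysome libraries alone, which called 441 genes. In total mRNA 2 members were called in place of 1 with a pseudocount of 16 and with no abundance trend (Rraga and Tfeb) and in a fit of the total libraries alone (Rraga and Fnip1), which called 2688 genes. With a minimum of 1.5-fold 0 members and 651 genes were called in total mRNA and 947 genes in polysome mRNA. For polysome against total mRNA that minimum left 3 members in Torin1 cells and 3 in DMSO cells (Fnip1, Fnip2 and Mitf in each), and 5075 and 5434 genes.

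The replicate numbers were not taken as pairs: same-numbered Torin1 and DMSO libraries deviated together with r from -0.12 to 0.22. With the replicate block 5 members were called in polysome against total mRNA of each treatment, Mitf being lost in DMSO cells, and 1283 genes in total and 1859 in polysome mRNA.

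Without 1 library or 1 replicate number, called members ranged from 0 to 2 in total mRNA, 0 to 2 in polysome mRNA, 3 to 6 for polysome against total mRNA in Torin1 cells and 3 to 5 in DMSO cells. All called genes ranged from 91 to 907 in total mRNA, 501 to 2705 in polysome mRNA and 0 to 224 in the interaction. For the lists, called genes ranged from 1 to 4 in polysome and stayed at 1 in total mRNA for the Rag regulators, from 1 to 5 and from 0 to 2 for mTORC1, Rheb and TSC, from 0 to 3 and from 0 to 1 for the TFEB regulators, and from 0 to 14 and from 0 to 3 for the lysosomal genes. Signs changed for Rragb (-0.063 to 0.0466) and Rragd (-0.0065 to 0.0525) in total mRNA, for Rragb (-0.22 to 0.0449) in polysome mRNA, for Tfeb (-0.15 to 0.56) in polysome against total mRNA of Torin1 cells, and in the interaction for Rragb (-0.26 to 0.10), Rragc (-0.0095 to 0.0721), Flcn (-0.15 to 0.10), Fnip1 (-0.16 to 0.44), Tfeb (-0.36 to 0.39) and Tfe3 (-0.17 to 0.10).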
